A study of Mus musculus with 6 samples.

Results

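The 10 genes described here are members of the Notch pathway and were measured in a mouse gastric adenocarcinoma line and in its paclitaxel (PTX)-resistant derivative. They were taken by symbol from the count table of the series, 10 of its 21959 genes, and comprised the 4 receptors Notch1, Notch2, Notch3 and Notch4, the 4 ligands Dll1, Dll4, Jag1 and Jag2, and the 2 target genes Hes1 and Hey1. All 10 passed the filter on low counts and were among the 11795 genes tested. The rule used gene names and no measured value, but the members were chosen with earlier results of these data known.

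RNA was sequenced from 3 libraries of MPC, the control line, and 3 libraries of MPC-PTX, which had gone through over 30 cycles of PTX, a drug that stabilises microtubules. In the study's text these lines are called MTC and MTC-R. Both carried the genotype CDH1-/-;Trp53-/-, so the control shared these deletions with the resistant line. Both came from gastric organoids of C57BL/6J mice in which floxed Trp53 and Cdh1 had been removed with tamoxifen and a Mist1-CreER allele, grown as a subcutaneous tumour in a BALB/c nude mouse and brought into culture. Per the study's methods, each line was taken from a single clone, so the comparison was between 1 control clone and 1 resistant clone, and a difference between clones cannot be told apart from one between control and resistant cells. The labels gave all 6 libraries the same batch and did not say whether replicates were separate cultures, so p-values measured the spread between these libraries, which may be technical. Whether PTX was present at harvest is not given in the sources used here.

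Totals ranged from 16574580 to 23148182 counts per library, and 13897 to 14295 genes had at least 1 count. Cdh1 had 2217 to 3068 counts and Trp53 had 63 to 142 counts in the 6 libraries, and these totals over a whole gene do not resolve its deleted exons. The MPC libraries differed more from each other than the MPC-PTX libraries did, with a biological coefficient of variation across genes of 17.9% against 3.01%. The deviation of an MPC library's expression from the other MPC libraries was correlated with GC content across 11776 genes. The Spearman correlation was 0.47, 0.35 and -0.58 for MPC replicates 1, 2 and 3, with replicate 3 largest in size and opposite in sign. Without MPC replicate 3 the same members were called in the same directions. The values that moved by more than 1.5 times are given with Notch2, Jag1 and Jag2 below. Keratins and the adhesion gene Epcam were abundant in both lines. The summed level of 7 epithelial markers was 9400 to 10888 CPM in MPC and 5678 to 5866 CPM in MPC-PTX. Here CPM are counts scaled to the normalised library size. At an adjusted p below 0.05 in the test described below, 7 of 7 were lower in MPC-PTX, against 15.6% of all tested genes. Of 11 gastric markers, Cldn18, Ctse and Anxa10 were tested and lower in MPC-PTX, and the other 8 had 0 to 2 counts in every library, with Tff1, Tff2, Gkn2 and Pgc at 0 in all of them. These epithelial and gastric genes differed between the same libraries as the members below, and their part in the results was not tested.

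Notch receptors are transmembrane proteins that are activated by ligands of the Delta-like and Jagged families on neighbouring cells. Ligand binding exposes the receptor to cleavage by an ADAM protease and then by gamma-secretase, and the freed intracellular domain enters the nucleus, where it joins the DNA-binding protein RBPJ and Mastermind coactivators to switch on genes such as those of the HES and HEY repressor families. In the stomach, Notch signalling is known for its part in keeping epithelial progenitors dividing and in their choice of fate.

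Of the 10 members, 6 were lower in MPC-PTX than in MPC, namely Notch4, Dll1, Dll4, Hes1, Jag1 and Notch1, and 1 member, Hey1, was higher, with p-values of edgeR's quasi-likelihood test adjusted by Benjamini-Hochberg over all 11795 tested genes and a threshold of 0.05. Notch2, Notch3 and Jag2 did not pass. Over all tested genes 15.6% were called lower and 14.1% higher by this rule. The study's methods used DESeq and ask for an unadjusted p below 0.05 and a log2 fold change beyond 1 in either direction. With these thresholds on the edgeR values, Notch4, Dll1 and Dll4 were lower and 0 members were higher. That held for 4.34% (lower) and 3.77% (higher) of all tested genes. The 7 genes called by adjusted p had 3 MPC values that did not overlap with the 3 MPC-PTX values, 6 lower and 1 higher. Such a lack of overlap held for 22.7% (lower) and 24.2% (higher) of all tested genes. The median log2 fold change, given throughout as MPC-PTX minus MPC, was -0.36 over the 10 members and 0.04 over all tested genes. In bulk RNA, fewer cells that express a gene and less RNA of it per cell cannot be told apart.

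**Figure D1:**
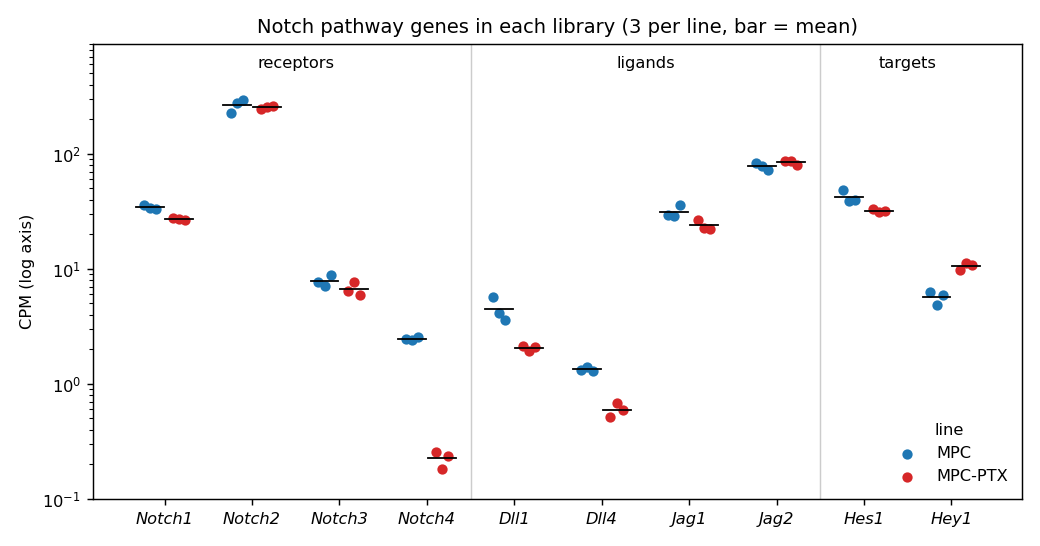
CPM of the 10 genes in each library, on a log axis; each point is 1 library (3 per line) and the black bar is the mean of a line. The 3 MPC-PTX points of Notch4, between 0.180 and 0.256 CPM, lie below its 3 MPC points at 2.42 to 2.55 CPM, and Hey1 is the gene whose MPC-PTX points all lie above those of MPC.

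Among the receptors, Notch4 showed the largest difference of the 10 members. This receptor is best known from the endothelium. Its gene (ENSMUSG00000015468, chr17:34564268-34588503, plus strand of GRCm38 in GENCODE M21) had 46, 47 and 53 counts in the MPC libraries and 6, 4 and 4 counts in the MPC-PTX libraries. As normalised levels these were 2.44, 2.42 and 2.55 CPM in MPC and 0.256, 0.180 and 0.238 CPM in MPC-PTX. Each MPC-PTX library was thus far below each MPC library, and the spread within either line was small beside the gap. The level was 10.8-fold lower in MPC-PTX (log2 fold change -3.43, standard error 0.25, 95% interval -4.02 to -2.83, adjusted p = 0.000133). The call was made in all 13 alternative fits that tested the gene for any change, with log2 fold changes from -3.55 to -3.28. The filter that asked for at least 10 counts in every sample removed it. The MPC-PTX value rested on 14 counts in all, so its size was less certain than its direction.

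Because endothelial cells use Notch4 and Dll4, endothelial markers were read in the same libraries. Pecam1, Cdh5, Tek, Tie1, Emcn and Erg had 0 to 9 counts in every library. Kdr and Flt1 were tested and not called, with log2 fold changes of -0.31 and 0.14. Kdr was nonetheless lower in MPC-PTX without overlap, at 2.66, 2.32 and 2.26 CPM against 1.92, 1.80 and 2.14 CPM, the direction of Notch4 and Dll4, and its part in the results was not tested. The summed level of the 8 markers was 4.46 to 6.10 CPM in MPC and 4.61 to 5.47 CPM in MPC-PTX, so it overlapped between the lines. Summed markers of mural cells (1.83 to 2.39 CPM against 1.54 to 3.52 CPM) overlapped as well, and those of fibroblasts (9.72 to 10.7 CPM against 8.63 to 9.92 CPM) did so too. Within the fibroblast list, Col1a1 was lower in MPC-PTX (log2 fold change -0.80, adjusted p = 0.00389), and Pdgfra had higher values without overlap but was not called (0.36, adjusted p = 0.121). The sum of leukocyte markers was 11.3 to 12.8 CPM in MPC and 9.80 to 10.7 CPM in MPC-PTX, without overlap. Most of that sum was Cd68, which was not called, and the other 7 markers had 0 to 8 counts per library, with 1 of them at 0 in all.

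The 250 bases before the RefSeq start of Notch4 (chr17:34564045-34564294, plus strand, GRCm38.p6) are shown because this gene fell most. The last 27 of them lie in an exon of Notch4 in GENCODE M21, whose models begin further upstream.
Notch4: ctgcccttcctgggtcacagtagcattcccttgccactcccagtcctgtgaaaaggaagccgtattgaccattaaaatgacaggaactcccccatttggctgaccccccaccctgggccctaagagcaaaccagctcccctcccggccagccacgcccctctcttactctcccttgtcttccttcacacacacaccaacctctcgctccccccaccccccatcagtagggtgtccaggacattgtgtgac

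Notch1, a receptor that acts in many epithelia, was lower by a small amount. Its gene lies on chromosome 2 (ENSMUSG00000026923, chr2:26457903-26516663, minus strand). It had 36.0, 33.8 and 33.2 CPM in MPC and 27.6, 27.4 and 26.7 CPM in MPC-PTX. The 2 sets of values did not overlap, and MPC-PTX varied by less than 1 CPM. The level was 1.26-fold lower (log2 fold change -0.33, standard error 0.08, adjusted p = 0.0154). This call was lost when any one of the MPC-PTX libraries was left out (adjusted p = 0.0699 to 0.0815).

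Notch2 (ENSMUSG00000027878, chr3:98013527-98150361, plus strand) was the most abundant receptor. It had 226, 274 and 293 CPM in MPC and 246, 257 and 258 CPM in MPC-PTX, and the values of MPC-PTX lay within the range of MPC. Its log2 fold change was -0.06 (95% interval -0.29 to 0.17, adjusted p = 0.679), -0.03 without MPC replicate 3 and -0.16 without MPC replicate 1. Notch3 (ENSMUSG00000038146, chr17:32120820-32166852, minus strand), a receptor best known from vascular smooth muscle, had 7.65, 7.11 and 8.84 CPM in MPC and 6.45, 7.62 and 5.88 CPM in MPC-PTX. These ranges overlapped through MPC-PTX replicate 2, and its log2 fold change was -0.24 (95% interval -0.58 to 0.10, adjusted p = 0.261).

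To compare receptors with each other, counts were divided by the length of each gene's exons, and each receptor was expressed as a percentage of the 4 receptors in its library. Notch2 made up 86.8% ± 1.78 (SD, n = 3) in MPC and 89.5% ± 0.525 in MPC-PTX. The share of Notch4 was 1.09% ± 0.113 in MPC and 0.106% ± 0.0206 in MPC-PTX. Neither pair of ranges overlapped, and the exact two-sided permutation test gave p = 0.1 for both, the smallest that 3 libraries against 3 allow. Notch1 contributed 8.66% ± 1.40 in MPC and 7.28% ± 0.275 in MPC-PTX (exact permutation p = 0.2), and Notch3 3.46% ± 0.397 and 3.13% ± 0.394 (exact permutation p = 0.4). Without MPC replicate 1 the difference in the share of Notch2 went from 2.71 to 1.68 percentage points and that of Notch1 from -1.38 to -0.60. The receptor pool was mostly Notch2 in both lines on this scale.

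The ligands Dll1 and Dll4 were both lower in MPC-PTX. Dll1, a Delta-like ligand that epithelial progenitors of the gut present to their neighbours, lies on chromosome 17 (ENSMUSG00000014773, chr17:15367354-15376872, minus strand). It had 5.74, 4.12 and 3.60 CPM in MPC (108, 80 and 75 counts) and 2.14, 1.94 and 2.08 CPM in MPC-PTX (50, 43 and 35 counts). MPC replicate 1 was the highest library and the MPC-PTX values lay close together below the lowest MPC value. The level was 2.18-fold lower (log2 fold change -1.12, standard error 0.21, adjusted p = 0.00771), and the call was made in all 14 alternative fits.

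Dll4, the Delta-like ligand known for its part in sprouting vessels, lies on chromosome 2 (ENSMUSG00000027314, chr2:119325784-119335962, plus strand). It had 1.33, 1.39 and 1.30 CPM in MPC (25, 27 and 27 counts) and 0.513, 0.676 and 0.594 CPM in MPC-PTX (12, 15 and 10 counts). Again the lines did not overlap. The level was 2.24-fold lower (log2 fold change -1.17, standard error 0.24, adjusted p = 0.0108). Without MPC-PTX replicate 1 the adjusted p was 0.0576, at a log2 fold change of -1.06.

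The sequences before the starts of these 2 ligands are given because they fell together by a similar factor. Both are 250 bases long and are from RefSeq on GRCm38.p6, chr17:15376933-15377182 on the minus strand for Dll1 (the more upstream of its 2 starts) and chr2:119325534-119325783 on the plus strand for Dll4. The Dll1 stretch lies entirely in an exon of the lincRNA A930024N18Rik on the opposite strand, and the first 31 bases of the Dll4 stretch lie in an exon of Gm14207, also on the opposite strand. Capitals mark the letters CACGCG.
Dll1: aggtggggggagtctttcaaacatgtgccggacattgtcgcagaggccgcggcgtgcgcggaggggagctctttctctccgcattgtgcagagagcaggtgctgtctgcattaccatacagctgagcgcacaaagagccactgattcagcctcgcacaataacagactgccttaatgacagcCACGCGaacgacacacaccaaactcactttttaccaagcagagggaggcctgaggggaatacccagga
Dll4: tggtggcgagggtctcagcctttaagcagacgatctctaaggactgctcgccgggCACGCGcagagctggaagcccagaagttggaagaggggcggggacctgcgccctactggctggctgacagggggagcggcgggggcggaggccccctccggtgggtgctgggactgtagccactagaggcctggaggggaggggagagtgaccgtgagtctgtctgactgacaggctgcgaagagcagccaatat

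Promoter windows of 300 bases were found in the RefSeq table for 8 of the 10 members, 9 windows in all, and Hes1 and Hey1 had no entry. The letters TGGGAA, the core of the sequence that RBPJ recognises, and the longer GTGGGAA, which contains it, were searched on both strands. Neither was in any of the 9 windows, while 25.6% and 6.38% of all 32851 windows held them. The letters CACGCG and CACGTG, which HES and HEY proteins are known to bind, were added to the search after the members' values were known. CACGCG was in 5 of the 9 windows, those of Notch2, Dll4, Jag1 and Jag2 and 1 of the 2 of Dll1, against 9.27% of all windows, and CACGTG was in 0 of the 9 against 7.15%. CACGCG holds only G and C around 1 A, and the member windows were GC-rich, at 55.7% to 86.0% GC against a median of 52.7% over all windows. The part of GC content in these counts of windows was not tested. Windows with these letters belonged to genes that fell (Dll1, Dll4, Jag1) and to genes that were not called (Notch2, Jag2), and the Notch4 window held none of the 4.

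Jag1 (ENSMUSG00000027276, chr2:137081456-137116644, minus strand), a Jagged ligand that acts in many epithelia, had 29.4, 28.6 and 36.1 CPM in MPC and 26.6, 22.8 and 22.3 CPM in MPC-PTX. The highest MPC-PTX library, replicate 1, was close to the lowest MPC library. The level was 1.31-fold lower (log2 fold change -0.39, standard error 0.12, adjusted p = 0.0480), just inside the threshold. The call was lost without MPC replicate 2 (adjusted p = 0.0703), without any one of the MPC-PTX libraries (0.0662 to 0.169) and when libraries were scaled by their totals alone (0.0645). The call was made in 8 of the 14 alternative fits, the fewest of the 7 called members.

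Jag2 (ENSMUSG00000002799, chr12:112907819-112929776, minus strand), the other Jagged ligand, was the most abundant ligand. It had 83.4, 77.7 and 72.6 CPM in MPC and 87.4, 86.7 and 80.3 CPM in MPC-PTX. MPC replicate 1 lay above MPC-PTX replicate 3, so the lines overlapped, and the log2 fold change was 0.12 (95% interval -0.06 to 0.30, adjusted p = 0.280). Without MPC replicate 3 it was 0.02 (adjusted p = 0.769). The genes around Jag2 were mostly lower in MPC-PTX. Of 19 tested genes that start within 1 Mb of it on chromosome 12, 18 had a negative log2 fold change and 13 were called lower, with a median of -0.42 against -0.14 for the 411 tested genes of that chromosome. For the other 9 members the median of such neighbours was between -0.11 and 0.09. For Notch4 it was -0.05 over 70 genes, of which 8 were called lower and 4 higher. The shares called over all tested genes were 15.6% lower and 14.1% higher.

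Expressed as a percentage of the 4 ligands per kb of exon, Jag2 made up 62.2% ± 3.17 (SD, n = 3) in MPC and 71.99% ± 1.28 in MPC-PTX. Jag1 took 30.0% ± 4.21 in MPC and 24.2% ± 1.37 in MPC-PTX, Dll1 5.89% ± 1.26 and 2.88% ± 0.189, and Dll4 1.94% ± 0.124 and 0.916% ± 0.148. The share of Jag1 differed by -5.77 percentage points with all libraries and by -3.37 without MPC replicate 3. The ranges of the lines did not overlap for any of the 4, and each exact two-sided permutation test gave p = 0.1, the smallest possible here. Shares within a library do not depend on the scaling between libraries, and the 4 shares of a library are bound to each other since they add up to the whole.

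**Figure D2:**
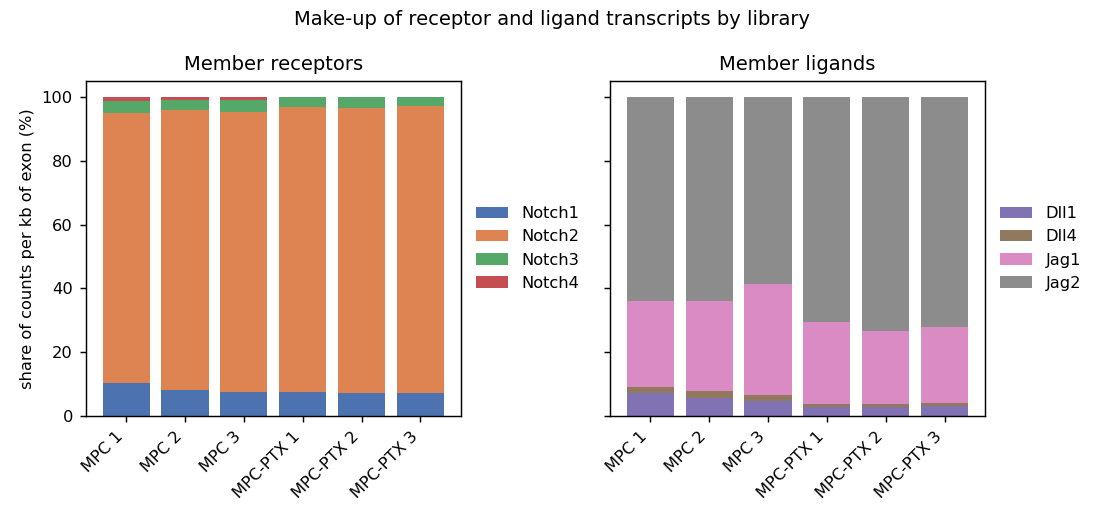
Percentage of counts per kb of exon that each gene takes among the 4 receptors (left) and the 4 ligands (right), 1 stacked bar per library. Notch2 fills 84.7% to 90.1% of every receptor bar, and Jag2 fills 58.5% to 64.1% of the MPC ligand bars and 70.7% to 73.3% of the MPC-PTX ligand bars.

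The 2 target genes moved in opposite directions. Hes1, a repressor that Notch induces in many tissues and that holds back differentiation genes, lies on chromosome 16 (ENSMUSG00000022528, chr16:30064384-30067796, plus strand). It had 48.3, 38.8 and 39.7 CPM in MPC and 33.0, 30.9 and 31.7 CPM in MPC-PTX. MPC replicate 1 was the highest, and all 3 MPC-PTX libraries lay below the lowest MPC library. The level was 1.33-fold lower (log2 fold change -0.41, standard error 0.10, adjusted p = 0.0232). The call was lost when any one of the MPC-PTX libraries was left out (adjusted p = 0.0727 to 0.102).

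Hey1, a related repressor known from vessels and bone as well as from epithelia, lies on chromosome 3 (ENSMUSG00000040289, chr3:8663359-8667256, minus strand). It had 118, 94 and 123 counts in MPC and 228, 248 and 181 counts in MPC-PTX, or 6.27, 4.85 and 5.91 CPM against 9.74, 11.2 and 10.8 CPM. Each MPC-PTX library was above each MPC library. The level was 1.86-fold higher (log2 fold change 0.89, standard error 0.13, 95% interval 0.58 to 1.21, adjusted p = 0.00296). The call was made in all 14 alternative fits, with log2 fold changes from 0.79 to 0.97.

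**Figure D3:**
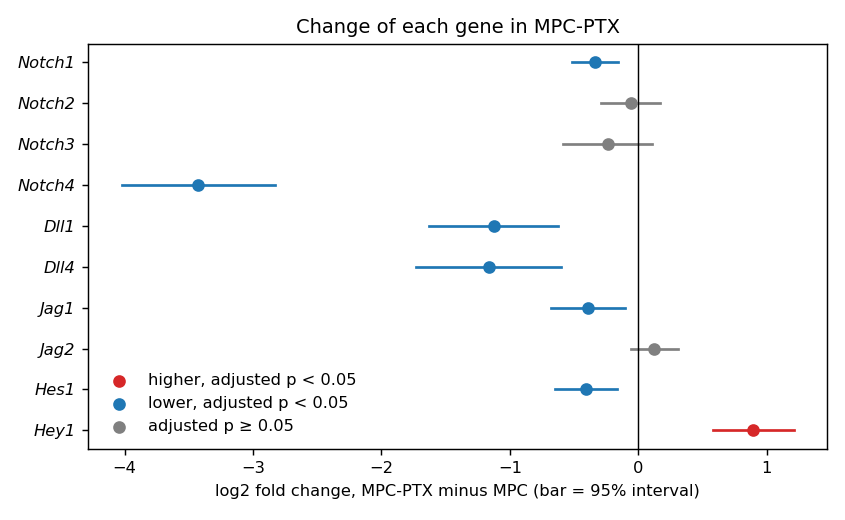
Log2 fold change of each gene, MPC-PTX minus MPC, from edgeR's quasi-likelihood fit, with its 95% interval as a bar; blue marks genes called lower, red the gene called higher and grey genes not called. The interval of Notch4, -4.02 to -2.83, does not reach that of any other member, and the intervals of Notch2, Notch3 and Jag2 include 0.

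On a scale that allows genes to be compared, CPM per kb of exon, the levels of the members covered a wide range. In MPC the order was Notch2 (24.5 ± 3.19), Hes1 (20.8 ± 2.57), Jag2 (11.2), Jag1 (5.39), Notch1 (2.41), Hey1 (1.74), Dll1 (1.06), Notch3 (0.973), Dll4 (0.348) and Notch4 (0.307). Notch2 and Hes1 overlapped in MPC, as did Dll1 and Notch3, and the other neighbours in the order did not. In MPC-PTX the order was Notch2 (23.5), Hes1 (15.6), Jag2 (12.2), Jag1 (4.10), Hey1 (3.23), Notch1 (1.91), Notch3 (0.822), Dll1 (0.486), Dll4 (0.154) and Notch4 (0.0279), with no overlap between neighbours. Hey1 was thus below Notch1 in MPC and above it in MPC-PTX. Part of the order depends on the length used. With the longest transcript of each gene in place of all its exons, an alternative chosen after the data were seen, Hes1 (28.8) stood above Notch2 (25.2) and Notch4 (0.375) above Dll4 (0.357) in MPC, each pair with overlap, and Hey1 (4.36) stood above Jag1 (4.26) in MPC-PTX, also with overlap. The order of Hey1 and Notch1 was the same with either length.

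Annotated genes on the opposite strand overlap Notch1, Notch3, Notch4, Dll1 and Dll4 in GENCODE M21 (0610009E02Rik and Gm13568, Gm17276, Gm20462, A930024N18Rik and Gm14207). On the same strand, Mir6996 overlaps Notch1, Gm42819 and Gm42820 overlap Notch2, and Mir6941 overlaps Jag2. None of these overlapping genes has a line in the count table. Whether counting used strand is not given in the sources used here, and strand would not separate the overlaps on the same strand. Reads of both partners thus cannot be told apart, and the counts of these members are uncertain to that extent.

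The rest of the pathway was read from lists of 67 further genes by role, of which 52 could be tested. Of these 52, 9 were higher and 6 were lower in MPC-PTX, and 37 did not pass, with the background at 14.1% higher and 15.6% lower over all tested genes. The median log2 fold change was 0.09. The lines did not overlap for 16 of them with MPC-PTX higher and for 12 with MPC-PTX lower. Over all tested genes this held for 24.2% (higher) and 22.7% (lower). By the study's thresholds on the edgeR values 1 was higher and 0 were lower, against 3.77% and 4.34% of all tested genes. Without MPC replicate 3, 18 were called higher and 15 lower, in a fit that called 25.4% of all tested genes higher and 27.1% lower. Without MPC replicate 2, 5 were called higher and 2 lower, with 7.79% and 10.2% over all tested genes. Without any one of the MPC-PTX libraries the counts were 4 to 7 higher and 2 lower, with 6.75% to 7.02% higher and 9.04% to 9.42% lower over all tested genes. Of the 15 genes called, 6 were called in all 14 alternative fits, namely Poglut2, Ncstn, Mib2, Numbl, Dtx4 and Tle1. The other 9 were called in 7 to 12 of them. Called genes other than Neurl1a, Dlk2 and Dtx4 are named outside the rule for names and were chosen after their values were seen.

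Of the 4 ubiquitin ligases that drive uptake of the bound ligand, a step that ligands need to activate receptors, 2 were higher. By the same rule 14.1% of all tested genes were higher. Neurl1a had 2.34, 1.13 and 1.44 CPM in MPC and 4.19, 2.93 and 4.52 CPM in MPC-PTX. The lines did not overlap, although MPC replicate 1 and MPC-PTX replicate 2 were close (log2 fold change 1.24, standard error 0.30, adjusted p = 0.0191). The call was lost without MPC replicate 2 (adjusted p = 0.0692), without MPC-PTX replicate 1 (0.0739) and without MPC-PTX replicate 3 (0.0752). Mib2 had 12.2, 11.2 and 11.7 CPM in MPC and 19.4, 22.5 and 21.7 CPM in MPC-PTX (log2 fold change 0.86, standard error 0.10, adjusted p = 0.000858). Mib1, the ligase of this list with the highest CPM, spread widely in MPC at 52.2, 73.0 and 151 CPM, against 113, 128 and 133 CPM in MPC-PTX. Its log2 fold change was 0.43 (adjusted p = 0.406) with all libraries. It was 0.94 (adjusted p = 0.00205) without MPC replicate 3, 0.15 (adjusted p = 0.737) without MPC replicate 1, 0.29 (adjusted p = 0.675) without MPC replicate 2 and 0.21 (adjusted p = 0.232) with the correction for GC content and length.

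Of 8 enzymes that add sugars to the receptor, 7 were tested, with 3 higher and 1 lower. The shares over all tested genes were 14.1% higher and 15.6% lower. Poglut2 and Eogt, which act on the EGF-like repeats, had log2 fold changes of 0.56 and 0.35. The Fringe enzymes, which extend O-fucose and change the response to the ligand classes, differed from each other, since Rfng was higher (0.55) and Lfng was lower (-0.26). Without MPC replicate 2 the calls of Eogt (adjusted p = 0.0865) and Lfng (0.0786) were lost. They were also lost without any one of the MPC-PTX libraries (0.0883 to 0.115 for Eogt and 0.1004 to 0.117 for Lfng), and that of Rfng without MPC-PTX replicate 1 (0.0569) or 3 (0.0600). Pofut1, which adds the O-fucose, had the highest CPM of the list and was not called (0.09, adjusted p = 0.400). Mfng had 0 to 4 counts per library and was not tested.

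Of 10 genes of the cleavage steps, 2 were lower and 0 higher by edgeR's quasi-likelihood test and by DESeq2. Of all tested genes edgeR called 15.6% lower and 14.1% higher, and DESeq2 called 16.6% lower and 12.3% higher. Ncstn, a subunit of gamma-secretase, had 142, 151 and 144 CPM in MPC and 111, 107 and 103 CPM in MPC-PTX (log2 fold change -0.45, standard error 0.06, adjusted p = 0.00204). Aph1a, another subunit and the gene with the highest CPM of this list, was not called (-0.18, adjusted p = 0.149), but was without MPC replicate 3 (-0.30, adjusted p = 0.000363). With the correction for GC content and length it was not called (-0.13, adjusted p = 0.0949). Of 8 tested genes of receptor trafficking and turnover, Numbl was higher (0.55) and Numb (-0.32), Dtx3l (-0.41) and Dtx4 (-0.35) were lower. Numb and Numbl are related adaptor proteins that hold Notch activity back, and their changes had opposite signs. Numb lost its call in 6 of the 14 alternative fits, without MPC replicate 2 (adjusted p = 0.109), without any one of the MPC-PTX libraries (0.0959 to 0.137), with total library size (0.0561) and with the replicate block (0.0529). Dtx3l lost it without MPC replicate 2 (0.0623) and without any one of the MPC-PTX libraries (0.0838 to 0.128). Dtx4, of the Deltex ligase family, had 125, 124 and 116 CPM in MPC and 98.7, 93.8 and 94.9 CPM in MPC-PTX (adjusted p = 0.00613).

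In the nucleus, 0 of 8 tested genes for RBPJ and its coactivators were called by edgeR's quasi-likelihood test or by DESeq2. The shares over all tested genes were 14.1% higher and 15.6% lower by edgeR, and 12.3% and 16.6% by DESeq2. Rbpj itself had 104, 103 and 127 CPM in MPC and 129, 127 and 124 CPM in MPC-PTX, so that MPC replicate 3 lay among the MPC-PTX libraries (log2 fold change 0.18, adjusted p = 0.183). Without that library its log2 fold change was 0.23 (adjusted p = 0.00327), and with the correction for GC content and length it was 0.03 (adjusted p = 0.776). Of 12 corepressors, the Groucho family members Tle1 (0.50, adjusted p = 0.00591) and Tle4 (0.45, adjusted p = 0.0183) were higher, and Ctbp1, the corepressor with the highest CPM, was not called (-0.24, adjusted p = 0.0756) except without MPC replicate 3 (-0.37, adjusted p = 0.000109) and with the correction for GC content and length (-0.19, adjusted p = 0.0230). The call of Tle4 was lost with DESeq2 (adjusted p = 0.0512), without MPC replicate 2 (0.0647) and without MPC-PTX replicate 1 (0.0836) or 3 (0.0826).

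Of the other HES and HEY genes, Hes6 was the only one that could be tested. Hes2, Hes3, Hes5, Hes7, Hey2 and Heyl had 0 to 11 counts per library and were not tested. Of these 6, Hes7 was the only one whose lines did not overlap, with 5, 3 and 1 counts in MPC (0.266, 0.155 and 0.0480 CPM) and 11, 6 and 9 counts in MPC-PTX (0.470, 0.271 and 0.535 CPM). At these counts the size of a difference is uncertain. Hes6, a family member that opposes Hes1, had 24.97, 23.8 and 20.8 CPM in MPC and 20.4, 19.4 and 16.9 CPM in MPC-PTX (log2 fold change -0.29, adjusted p = 0.0906). It was called lower without MPC replicate 3 (-0.41, adjusted p = 0.00571) and with the correction for GC content and length (-0.34, adjusted p = 0.0119). Nrarp, a target that feeds back on the receptor's intracellular domain, had a log2 fold change of 0.21 (adjusted p = 0.569). The proneural genes Atoh1, Neurog3 and Neurod1, which HES proteins repress in secretory and neuroendocrine lineages, had 0 or 1 count in every library. Of the further ligands, the non-canonical Dlk2 was the only one tested and was higher, with 12.0, 6.44 and 6.97 CPM in MPC and 16.02, 15.3 and 14.1 CPM in MPC-PTX (log2 fold change 0.84, standard error 0.23, adjusted p = 0.0321), while Dll3, Dlk1 and Dner had 0 to 3 counts per library. The call of Dlk2 was lost without MPC replicate 2 (adjusted p = 0.106) and without any one of the MPC-PTX libraries (0.0814 to 0.108).

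**Figure D4:**
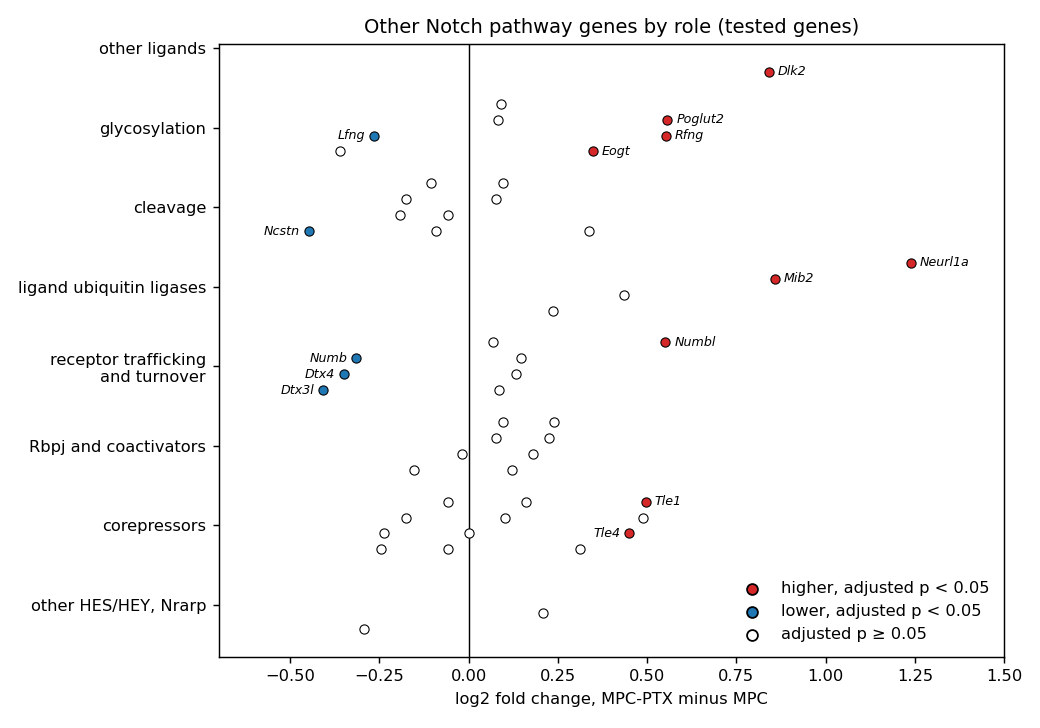
Log2 fold change, MPC-PTX minus MPC, of 51 of the 52 tested further pathway genes by role; each point is a gene, filled red when called higher, blue when called lower and open when not called, and vertical offsets within a role only separate points. The called genes shown are named, from Ncstn at -0.45 to Neurl1a at 1.24, and 0 of the 8 genes of RBPJ and its coactivators are filled. Of all tested genes, 14.1% were called higher and 15.6% lower.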

How the data were processed

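Poly-A selected RNA of 3 MPC and 3 MPC-PTX libraries was sequenced by the authors. Their processing notes name fastp 0.22.0 for read filtering and their methods name HISAT2 for mapping. The genome release, annotation, counting software and use of strand are not given in the sources used here. The authors deposited raw read counts per gene, not normalized and not pooled. The series table and the tables of single libraries held the same values, and the 51 lines without a gene symbol were kept under their identifier.

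From these counts, TMM factors were computed, filterByExpr kept 11795 genes (its minimum count was 10), and edgeR 4.0.16 in R 4.3.3 tested them (robust glmQLFit, then glmQLFTest), with Benjamini-Hochberg adjustment and a threshold of 0.05. CPM use the scaled library sizes. Standard errors and 95% intervals are on the log2 scale of this fit, and folds are its log2 fold changes taken off that scale. Each standard error is the size of the log2 fold change over the square root of the test's F statistic. The intervals were built from these standard errors. Depth, between 16574580 and 23148182 counts per library, limits the low genes. Of the tested genes, 11776 were matched by Ensembl identifier to GENCODE M21 (GRCm38) for positions and exon lengths. The members and lists were chosen with earlier results of these data known. All members are named, with further pathway genes whose adjusted p passed 0.05 with a log2 fold change beyond 1 in either direction, and the gene with the highest CPM of each role. Alternatives were DESeq2 1.42.0, other scalings and filters, a replicate block, a loess correction for GC content and length (span 0.3), glmTreat against a log2 fold change of 1, other gene lengths for shares and levels, and leaving out each library. The scripts were tested on simulated data. A few genes that enter the counts of the lists are not reported here by name.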

Additional observations from a re-analysis of the deposited data

How the results depend on the processing

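No member and no further pathway gene named above changed sign under the alternatives run where it was called. Of the 7 called members, Notch4, Dll1 and Hey1 were called in every alternative fit in which they were tested, glmTreat apart. Leaving out 1 library in turn gave log2 fold changes of -0.41 to -0.30 for Notch1, -1.28 to -1.06 for Dll4, -0.48 to -0.33 for Jag1 and -0.50 to -0.30 for Hes1, with the lost calls named above. It gave 5 or 6 members lower without 1 MPC library, in fits that called 10.2% to 27.1% of all tested genes lower. Without 1 MPC-PTX library 2 or 3 members were lower, against 9.04% to 9.42%. Further genes numbered 4 to 18 higher and 2 to 15 lower, against 6.75% to 25.4% and 9.04% to 27.1% of all tested genes. Over all genes, 3509 were called, 4320, 2156 and 6247 without MPC replicate 1, 2 and 3, and 1904 to 1940 without 1 MPC-PTX library. Jag1 was not called with total library size (-0.35) or with the replicate block (-0.39, adjusted p = 0.0587). Tested against a log2 fold change of 1 with glmTreat, 1 member (Notch4) was lower and 0 higher, and 0 further genes were called in either direction. That fit called 2.16% of all tested genes lower and 1.17% higher. The correction for GC content and length gave 14 further genes higher and 10 lower. That fit called 21.043% of all tested genes higher and 20.56% lower. With the replicate block added the correction gave 14 and 11, against 21.263% and 20.593% of all tested genes. The replicate block alone gave 3 lower, against 14.557% of all tested genes. Same-numbered libraries of the lines had correlations of their deviations of 0.15, -0.02 and 0.17, so the numbers were not taken as pairs, and the block changed no other member's call. The cause of these changes was not tested. Without division by length, the change in the share was -0.73 percentage points for Notch4 and -0.63 for Dll4, and with the longest transcript -1.13 and -0.86. Between 4 and 6 counts per MPC-PTX library limit the precision for Notch4.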

Other observations

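Ratios of related genes within a library, which need no scaling between libraries, were added after the members' values were seen. Per count of Hes1 there were 0.130, 0.125 and 0.149 counts of Hey1 in the MPC libraries and 0.295, 0.362 and 0.339 in the MPC-PTX libraries. Per count of Jag1 there were 2.83, 2.72 and 2.01 counts of Jag2 in MPC and 3.29, 3.81 and 3.59 in MPC-PTX. Neither ratio overlapped between the lines. These ratios are descriptions, with no test.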
